A study of Mus musculus with 12 samples.

Results

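Cyclin F, the product of Ccnf, and the proteins it is known to mark for destruction form a small group of cell-cycle genes, and the mRNA of this group is described here in mouse myoblasts. The 7 genes were taken by name from earlier knowledge of cyclin F: Ccnf itself and 6 of its substrates, Rrm2, Cdc6, Ccp110, Slbp, Nusap1 and Exo1. They are 7 of the 54532 genes in the deposited table, and the rule that names them uses no measured value, although they were proposed with earlier results of these data known. C2C12 cells, an established line of mouse myoblasts that can fuse into myotubes, were transfected with siRNA at 30 nM and harvested after 48 h. There were 4 groups: siCONTROL with a control siRNA, siKEAP1 with an siRNA that targets Keap1, siCCNF with one that targets Ccnf, and siKEAP1/siCCNF with both together. Poly(A) RNA of 3 biological replicates per group was sequenced, 12 libraries in all. The cells carried no engineered allele, all were exposed to an siRNA, and an siRNA lowers its target without removing the gene. The sources used here do not say which Ccnf siRNA was used, or how much of each siRNA went into the double depletion.

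Cyclin F is an F-box protein: it brings substrates to the SCF ubiquitin ligase, which is built from SKP1, CUL1 and RBX1, and does not activate a cyclin-dependent kinase. Its protein rises through S phase, peaks in G2 and falls in mitosis, and its substrates act in DNA synthesis, origin licensing, histone mRNA handling, centrosome duplication, spindle assembly and DNA repair. KEAP1 is the adaptor through which the CUL3 ligase destroys NRF2, the transcription factor of the oxidative stress response. RNA sequencing reads the mRNA of the substrates and not their protein, on which cyclin F acts.

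The libraries held from 18464209 to 37743198 counts, and every siCCNF library was deeper than every siCONTROL library. All 7 genes passed the filter on low counts, and the lowest count of any of them in a library was 375, for Cdc6. Keap1, the other gene targeted, fell to 14.4% of its siCONTROL level after siKEAP1 and to 27.5% in the double depletion. Within its group, siCONTROL replicate 1 deviated along gene length (r = -0.31 across 15122 genes, which are not independent), and so did siKEAP1/siCCNF replicate 3 (r = -0.28). The values with that trend removed are given where they change a call. The 5 myoblast markers examined, Myod1 and Myf5 among them, were detected in every library, with summed levels of 1290 to 1530 CPM (counts scaled to library size and by TMM) in siCONTROL and 540 to 821 CPM in the depletions. The 3 leukocyte markers summed to at most 10.1 CPM and the 3 epithelial markers to at most 2.11 CPM, with 1 marker of each list seen in every siCONTROL library, Cd68 and Cdh1. Ptprc, Adgre1, Epcam and Krt18 were at 0 in every siCONTROL library. Low as it is, Cd68 was called higher in each depletion, at 0.997 ± 0.343 CPM in siCONTROL, 7.34 ± 2.38 CPM after siKEAP1, 2.37 ± 0.781 CPM after siCCNF and 2.90 ± 0.749 CPM after both (SD, n = 3 each). Cdh1 was called higher after siCCNF and after both, at 0.252 ± 0.123 CPM in siCONTROL, 0.215 ± 0.0597 CPM after siKEAP1, 0.949 ± 0.254 CPM after siCCNF and 1.42 ± 0.531 CPM after both. The 5 muscle differentiation markers, Myog among them, summed to 43.1 to 107 CPM in siCONTROL, 1.66 to 2.11 CPM after siKEAP1, 10.6 to 15.9 CPM after siCCNF and 3.20 to 3.45 CPM after both. The part of any of these markers in the results below was not tested.

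Per length of transcript, the 7 mRNAs differed widely in level. In siCONTROL, Rrm2, the small subunit of ribonucleotide reductase, stood at 140 ± 4.35 FPKM (SD, n = 3). Ccnf followed at 26.0 ± 1.32 FPKM and Nusap1, a spindle microtubule protein, at 25.7 ± 1.94 FPKM, and the libraries of these neighbours overlapped. Slbp, the protein that binds the stem-loop of histone mRNA, stood at 14.8 ± 0.268 FPKM and Cdc6, which loads the replicative helicase onto origins, at 7.30 ± 0.0199 FPKM. Ccp110, the cap of centrioles, at 4.33 ± 0.498 FPKM, and Exo1, an exonuclease of mismatch repair and end resection, at 3.62 ± 0.308 FPKM, overlapped each other. After siCCNF the order changed. Ccnf, at 6.55 ± 0.227 FPKM, dropped below Nusap1 (13.6 ± 1.49) and Slbp (12.3 ± 0.334), and Cdc6, at 2.87 ± 0.183 FPKM, dropped below Ccp110 (4.10 ± 0.476), in each case with no overlap between the libraries of the genes named. Rrm2 remained the highest of the 7, at 82.7 ± 8.45 FPKM.

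With positions as the table gives them, on the GRCm38 build, Ccnf lies on the minus strand of chromosome 17 (24223232 to 24251409), Rrm2 on the plus strand of chromosome 12 (24708241 to 24714146) and Cdc6 on the plus strand of chromosome 11 (98907801 to 98923940). Ccp110 lies on the plus strand of chromosome 7 (118712552 to 118737024) and Slbp on the minus strand of chromosome 5 (33634952 to 33652574). Nusap1 lies on the plus strand of chromosome 2 (119618298 to 119651244) and Exo1 on the plus strand of chromosome 1 (175880581 to 175913489). All 7 are annotated as protein coding. GENCODE on GRCm38 gives the same limits for 6 of the 7, and wider limits at both ends for Ccnf. The 172 bases that Nusap1 shares with Oip5 on the opposite strand could carry reads of either gene, since no source used here says whether counting used strand. Oip5 had 2701 counts over the 12 libraries and Nusap1 22702.

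The sequence before the start of Ccnf is shown because Ccnf is the gene targeted and because its 5′ flank holds motifs that are common among genes of the late cell cycle. The flank of Ccp110 is shown beside it because Ccp110 was the gene whose mRNA was called changed in no comparison. Both are from RefSeq on GRCm38.p6, 250 bases that end just before the RefSeq transcript start, 5′ to 3′ on the strand of the gene. The bases of the Ccnf flank nearest the start lie inside the wider limits that GENCODE gives the gene. The capitals in Ccnf mark each CCAAT box, which NF-Y binds, and each TTTGAA, a form of the cell cycle genes homology region (CHR).
Ccnf, chr17:24251410-24251659, minus strand: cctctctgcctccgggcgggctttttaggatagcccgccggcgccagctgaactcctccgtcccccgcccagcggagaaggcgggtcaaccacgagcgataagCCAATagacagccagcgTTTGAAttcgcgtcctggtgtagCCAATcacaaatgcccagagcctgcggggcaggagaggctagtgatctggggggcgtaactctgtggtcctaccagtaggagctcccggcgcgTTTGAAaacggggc
Ccp110, chr7:118712293-118712542, plus strand: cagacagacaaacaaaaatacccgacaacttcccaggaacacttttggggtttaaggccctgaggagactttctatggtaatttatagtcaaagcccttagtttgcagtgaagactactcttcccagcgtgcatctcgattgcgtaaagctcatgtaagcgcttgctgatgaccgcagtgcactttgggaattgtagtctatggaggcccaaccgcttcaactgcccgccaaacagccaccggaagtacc

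For 3 further genes, 30 bases around a match are shown, with the match in capitals. They are the E2F-type match of Cdc6, the CCAAT box of Rrm2 and the CCAAT box of Slbp that is nearest to the start.
Cdc6, chr11:98908002-98908031, plus strand: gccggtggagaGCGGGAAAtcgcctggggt
Rrm2, chr12:24708192-24708221, plus strand: ggtcagcggcgtCCAATgggaggcgaggcc
Slbp, chr5:33652624-33652653, minus strand: gcgaaggggcaaCCAATcagaggcccagct

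These matches came from a search of both strands of 300-base windows, 250 before and 50 after the start, with windows found for 6 of the 7 genes. Exo1 had no entry. Positions are counted from the RefSeq start, which lies 350 bases inside the limits given above for Cdc6, 13 bases inside for Rrm2, 9 bases outside for Ccp110 and at the limit for the others, so both matches of Cdc6 lie within its limits in the table. The letters searched were TTTCCCGC, TTTCGCGC, TTTGCCGC and TTTGGCGC for E2F, TTTGAA and TTCGAA for the CHR, CCAAT, and TGACNNNGC for the core of the antioxidant response element that NRF2 binds. Cdc6 held an E2F match at -138 (on the opposite strand), where 2.26% of 32817 mouse windows hold one. Ccnf held CHR matches at -130 and -14, against 19.2% of windows with any, and CCAAT at -147 and -107, against 37.4%. Rrm2 held CCAAT at -50, and Slbp held it at -108, -97 and -67. The antioxidant core was found in Rrm2 at -66 and in Cdc6 at -114, against 12.4% of windows. Ccp110 and Nusap1 held none of these letters. Such a match is a description of the sequence and not of binding.

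The first comparison asked what depletion of CCNF did to the mRNA of its own gene. Ccnf stood at 85.5, 80.1 and 77.7 CPM in the siCONTROL libraries and at 19.7, 20.5 and 21.3 CPM after siCCNF. It was at 56.8, 64.9 and 56.4 CPM after siKEAP1, and at 23.7, 24.1 and 25.6 CPM after both siRNAs. Each depleted group lay below siCONTROL without overlap (as did 28.6% of all genes after siCCNF), and the libraries that received siCCNF lay far below those that received siKEAP1 alone. siCCNF left 25.3% of the siCONTROL level, a log2 fold change of -1.99 (SE 0.0761, adjusted p = 2.46e-09, from the quasi-likelihood test of edgeR, Benjamini-Hochberg adjusted over all genes, as is every adjusted p below unless another tool is named). siKEAP1, which does not target Ccnf, left 73.2% of it (log2 fold change -0.45, SE 0.0728, adjusted p = 0.000258).

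**Figure D1:**
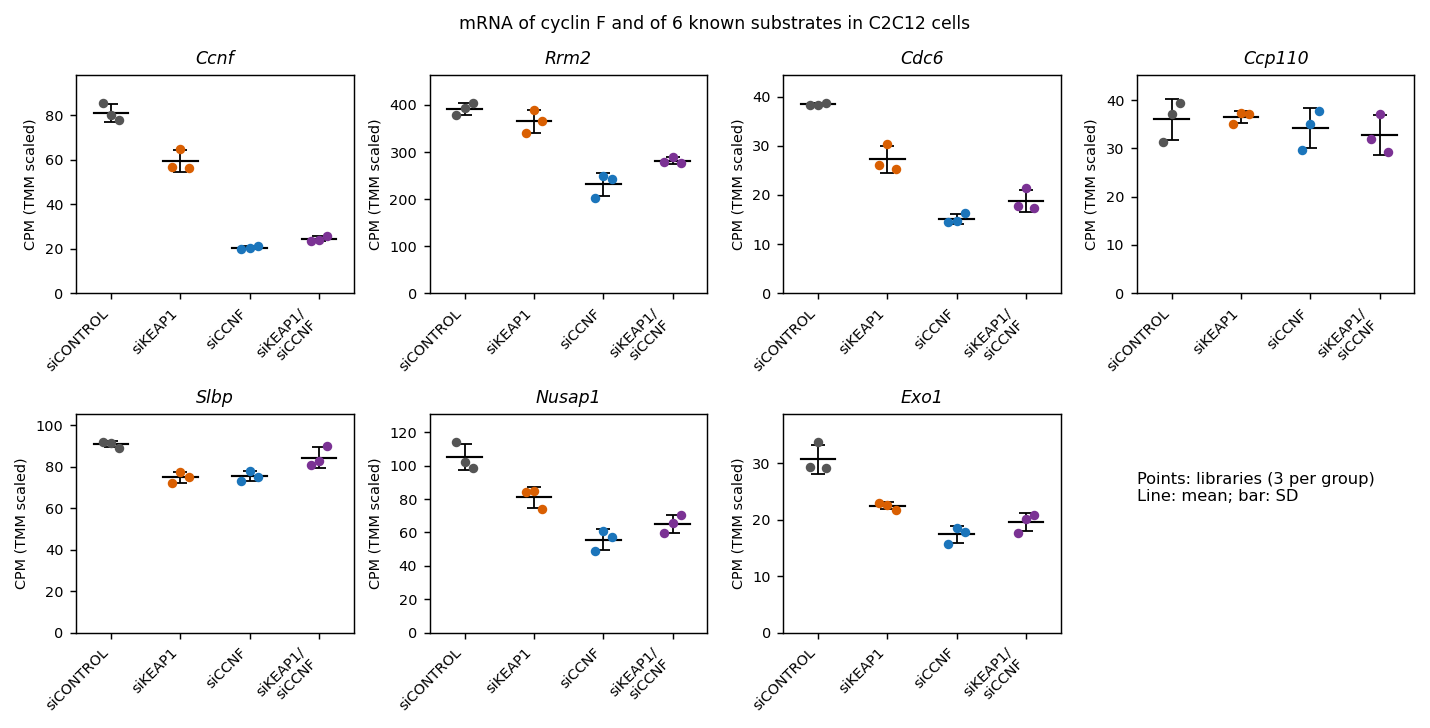
Each panel plots 1 gene, with TMM-scaled CPM on a linear axis from 0, the 4 groups on the horizontal axis, points for the 3 libraries of a group, a line for their mean and a bar for their SD. Ccnf fell from 77.7 to 85.5 CPM in siCONTROL to 19.7 to 21.3 CPM after siCCNF, while the 4 groups of Ccp110 overlap between 29.3 and 39.4 CPM.

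The next comparison asked whether the mRNA of the substrates moved when CCNF was depleted. After siCCNF, 5 of the 6 substrate mRNAs were called lower, where 25.5% of all 15122 genes tested were called lower. With Ccnf, the target of the siRNA, this made 6 of the 7 genes. None was called higher. Cdc6 fell the most among the substrates, to 39.3% of siCONTROL, then Nusap1 to 53.0%, Exo1 to 56.5%, Rrm2 to 59.0% and Slbp to 83.0%. Of the substrates only Cdc6 changed by over 2-fold, as did 6.76% of all genes in the direction of a fall. The targeted Ccnf also passed 2-fold. The median log2 fold change of the 6 substrates was -0.79, beside 0.01 for all genes tested. Markers of the cell cycle moved in the same libraries. All 9 S phase markers examined were lower after siCCNF, with a summed level of 656 to 691 CPM against 1280 to 1310 CPM in siCONTROL, and all 9 G2/M markers were lower, with 1040 to 1220 CPM against 1710 to 2220 CPM. Their part in the fall of the substrates was not tested, and in RNA from whole cultures a smaller share of cells in a phase and less mRNA per cell cannot be told apart.

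Cdc6 marks origins for replication in G1 and is removed by several ligases, cyclin F among them in G2. Its siCONTROL libraries were tight, at 38.3, 38.4 and 38.7 CPM, and its siCCNF libraries stood at 14.5, 14.6 and 16.3 CPM. The groups did not overlap, and the log2 fold change was -1.34 (SE 0.0996, adjusted p = 2.45e-07). After siKEAP1 it was at 26.1, 30.4 and 25.3 CPM, between both groups, with a log2 fold change of -0.50 (SE 0.0978, adjusted p = 0.0012). Its licensing partners moved the same way after siCCNF: all 6 of the list (Orc1, Cdt1, Gmnn, Mcm2, Mcm5 and Dbf4) were called lower, and this count and those of the partners below stand beside the 25.5% of all genes called lower. Cdt1, the co-loader of the helicase, changed by -0.95 (SE 0.0856) on the log2 scale, and Gmnn, the inhibitor of CDT1, by -1.37 (SE 0.141). After siKEAP1, 3 of the 6 were called lower, where 20.2% of all genes were, and Gmnn was at -0.05 (adjusted p = 0.789).

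Rrm2 sets the supply of deoxynucleotides in S phase and is marked by cyclin F in G2. Its libraries stood at 378, 394 and 404 CPM in siCONTROL and at 203, 248 and 243 CPM after siCCNF. All 3 siCCNF libraries were below all siCONTROL libraries, with a log2 fold change of -0.76 (SE 0.0788, adjusted p = 4.7e-06). After siKEAP1 the values were 340, 389 and 366 CPM, which overlapped siCONTROL, and the difference was not called (log2 fold change -0.10, 95% interval -0.27 to 0.07, adjusted p = 0.328). How reads shared with paralogs or pseudogenes of Rrm2 were counted is not given in the sources used here. Of its 6 partners in dNTP supply, 5 fell after siCCNF. Rrm1, the large subunit, changed by -0.62 (SE 0.0553) on the log2 scale, from 292 ± 3.91 to 190 ± 9.70 CPM (n = 3 each). Rrm2b, the p53-inducible small subunit that can stand in for RRM2, changed by -1.45 (SE 0.169), from 21.8 ± 3.01 to 8.04 ± 1.37 CPM. Samhd1, which breaks dNTPs down, was at -0.04 (adjusted p = 0.752). After siKEAP1, Rrm1 was lower (log2 fold change -0.50, adjusted p = 1e-05), while Rrm2b was at -0.04 (adjusted p = 0.875).

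Nusap1 stabilises microtubules near chromosomes in mitosis. It stood at 114, 102 and 98.9 CPM in siCONTROL, at 84.5, 84.7 and 74.0 CPM after siKEAP1 and at 48.6, 60.9 and 57.2 CPM after siCCNF. The 3 groups did not overlap, with log2 fold changes of -0.37 after siKEAP1 (SE 0.0965, adjusted p = 0.00728) and -0.92 after siCCNF (SE 0.0971, adjusted p = 5.69e-06). Of the 6 spindle partners, 4 fell after siCCNF. Tpx2, which activates Aurora A on the spindle, changed by -1.13 (SE 0.059) on the log2 scale, from 222 ± 3.90 to 101 ± 5.94 CPM (n = 3 each). Ckap5 and Kpnb1 were not called.

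Exo1 trims DNA ends in mismatch repair and homologous recombination. It stood at 29.4, 33.7 and 29.2 CPM in siCONTROL and at 15.7, 18.6 and 17.8 CPM after siCCNF, with no overlap. The log2 fold change was -0.82 (SE 0.0936, adjusted p = 1.04e-05). After siKEAP1 its values of 23.0, 22.6 and 21.8 CPM were also below siCONTROL (log2 fold change -0.45, SE 0.0935, adjusted p = 0.00173). Of 4 partners in resection and mismatch repair, 3 fell after siCCNF. The other, Dna2, a nuclease of end resection, was at -0.03 (adjusted p = 0.853).

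Slbp, which is needed for histone mRNA in S phase, moved less. It stood at 91.7, 91.5 and 89.1 CPM in siCONTROL, at 72.3, 77.5 and 74.9 CPM after siKEAP1 and at 73.2, 77.8 and 75.1 CPM after siCCNF. Both single depletions lay below siCONTROL without overlap and at like levels, with log2 fold changes of -0.28 (SE 0.0611, adjusted p = 0.00261) and -0.27 (SE 0.0609, adjusted p = 0.00267). In the list of 6 partners in histone mRNA handling, 3 fell after siCCNF. On the log2 scale, Lsm10 and Lsm11, parts of the U7 particle, changed by -0.85 (SE 0.136) and -0.63 (SE 0.102), and Eri1, a nuclease that trims histone mRNA, by -1.50 (SE 0.0604), while Npat, Casp8ap2 and Zfp473 were not called.

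Ccp110 was the exception. It stood at 31.3, 37.2 and 39.4 CPM in siCONTROL, at 35.0, 37.3 and 37.1 CPM after siKEAP1, at 29.7, 35.1 and 37.7 CPM after siCCNF and at 31.9, 37.2 and 29.3 CPM after both. All 4 groups overlapped. The log2 fold change after siCCNF was -0.07, with a 95% interval from -0.32 to 0.17 (adjusted p = 0.615), so a fall of the size seen for Slbp is inside the interval and one of the size seen for Rrm2 is outside it. With 1 library left out at a time it ranged from -0.17 to 0.02 and was not called. Of its 7 centriole partners, 5 fell after siCCNF. Cep97, which holds CP110 at the centriole cap, changed by -0.59 (SE 0.122) on the log2 scale, from 15.3 ± 0.680 to 10.1 ± 0.0726 CPM (n = 3 each), while Cep290 and Ttbk2 were not called.

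**Figure D2:**
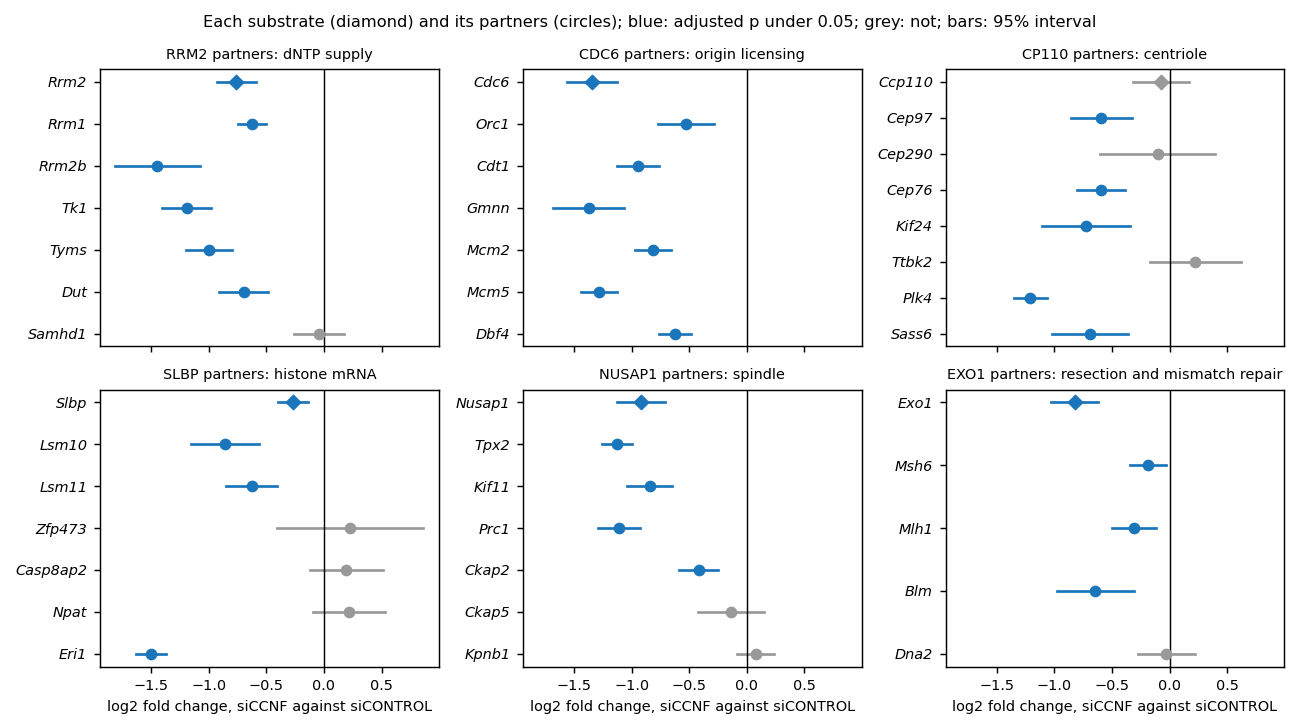
Each panel plots 1 substrate (diamond) and its partners (circles), with the log2 fold change of siCCNF against siCONTROL on the horizontal axis, bars for the 95% interval, and blue for an adjusted p under 0.05. Of the 35 partner genes 26 are blue, all to the left of 0, and Ccp110 is the only diamond that is grey.

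Over the 6 partner lists, 26 of 35 genes were called lower after siCCNF and none higher, where 25.5% of all genes were called lower. These lists hold many genes that are themselves transcribed with the cell cycle. Of 7 other proteins reported as cyclin F substrates (the transcription factors E2f1, E2f2, E2f3, E2f7 and E2f8, the pocket protein gene Rbl2 and Fzr1, the APC/C activator), all 7 mRNAs were called lower. E2f1 changed by -1.08 (SE 0.0905), E2f8 by -1.04 (SE 0.0859), E2f7 by -0.65 (SE 0.105), E2f3 by -0.63 (SE 0.0706) and E2f2 by -0.54 (SE 0.0826) on the log2 scale. The first pair passed 2-fold.

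The ligase was examined in the same way. Of 11 genes of the SCF machinery and the regulators of cyclin F, 2 were higher and 2 lower after siCCNF, and 7 were not called, where 22.5% of all genes were called higher and 25.5% lower. Cul1, the scaffold, was at 143 ± 3.20 CPM in siCONTROL and 104 ± 1.58 CPM after siCCNF (n = 3 each, log2 fold change -0.47, SE 0.0536, adjusted p = 1.18e-05). Skp1a, the adaptor that binds the F-box, was not called after siCCNF (log2 fold change 0.03, adjusted p = 0.761), and neither was Rbx1 (log2 fold change -0.10, adjusted p = 0.427). The other gene that was lower was Fzr1, which is also among the substrates above, at -0.42 (adjusted p = 5.38e-05). The genes that were higher, Btrc at 0.46 (adjusted p = 0.000254) and Cdc34 at 0.62 (adjusted p = 0.00139), were chosen for naming after their values were seen. After siKEAP1, 2 of the 11 were higher and 3 lower, where 3083 of all 15122 genes tested were called higher and 20.2% lower. The higher genes were Skp1a (log2 fold change 0.38, SE 0.0818, adjusted p = 0.00239) and Cdc34 (0.68, adjusted p = 0.000816). Cul1 (log2 fold change -0.18, SE 0.0536, adjusted p = 0.0163) and Fzr1 (-0.47, adjusted p = 2.79e-05) were among the lower ones.

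siKEAP1 alone lowered 5 of the 7 genes, Ccnf, Cdc6, Slbp, Nusap1 and Exo1, where 20.2% of all genes were called lower in that comparison. Every one of these 5 lay below siCONTROL without overlap, as 25.7% of all genes did, and none passed 2-fold. The median log2 fold change of the 6 substrates was -0.33, beside -0.01 for all genes. The falls left between 70.9% (Cdc6) and 82.5% (Slbp) of siCONTROL. Of the 35 partners 15 were called lower and 1 higher. Among the 7 other substrates 6 were called lower, with E2f3 at -1.06 (SE 0.0722) and E2f7 at -0.73 (SE 0.106) on the log2 scale, and Rbl2 was not called (log2 fold change 0.26, adjusted p = 0.13). Of the phase markers, 4 of 9 for S phase and 7 of 9 for G2/M were lower, with sums of 1110 to 1180 CPM and 1440 to 1480 CPM, and their part in these falls was not tested. All depletions were compared with the same siCONTROL libraries.

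**Figure D3:**
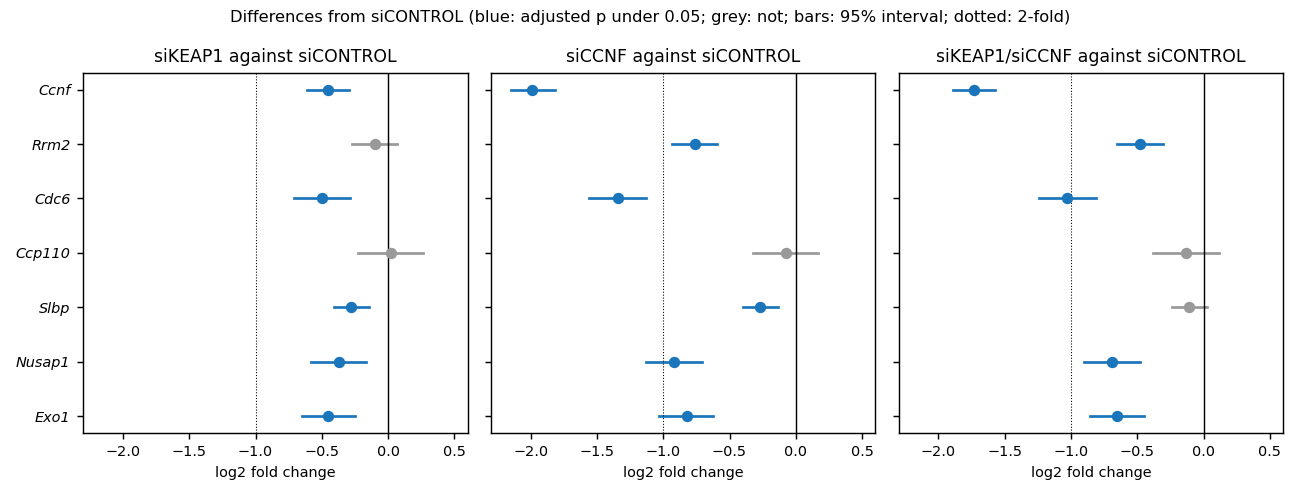
Each panel plots 1 depletion against siCONTROL, with the log2 fold change on the horizontal axis, the 7 genes on the vertical axis, bars for the 95% interval, blue for an adjusted p under 0.05, grey for the rest and a dotted line at a 2-fold fall. Blue points number 5 after siKEAP1, 6 after siCCNF and 5 after both, and Ccp110 is grey in all 3 panels.

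After both siRNAs, 5 of the 7 genes were lower than in siCONTROL, where 23.6% of all genes were. Ccnf, which siCCNF targets, is among these 5, so its fall is no result about the substrates. Ccnf stood at 30.2% of siCONTROL, Cdc6 at 48.9%, Nusap1 at 62.0%, Exo1 at 63.7% and Rrm2 at 71.8%. Their log2 fold changes were -1.73 for Ccnf (SE 0.0757), -1.03 for Cdc6 (SE 0.099), -0.69 for Nusap1 (SE 0.0969), -0.65 for Exo1 (SE 0.0936) and -0.48 for Rrm2 (SE 0.0786), with adjusted p between 4.95e-09 and 0.000266. Of the phase markers, 8 of 9 for S phase and 9 of 9 for G2/M were lower, with sums of 786 to 835 CPM and 1140 to 1430 CPM, and their part in these falls was not tested. Slbp, at 80.6, 82.6 and 89.9 CPM, overlapped siCONTROL and was not called (log2 fold change -0.11, adjusted p = 0.178). Without siKEAP1/siCCNF replicate 3, the highest of these libraries, its log2 fold change was -0.16 and was called (adjusted p = 0.0485).

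The double depletion was then compared with siKEAP1, to set siCCNF given together with siKEAP1 beside siKEAP1 alone. Keap1 was not held equal in this comparison, with 22.2 to 27.0 CPM after both siRNAs and 12.3 to 12.8 CPM after siKEAP1. There 4 genes were lower, where 26.9% of all genes were. Among them was Ccnf, the target of siCCNF (log2 fold change -1.28, SE 0.0752). The substrates among them were Cdc6 (-0.53, SE 0.0992), Rrm2 (-0.38, SE 0.0785) and Nusap1 (-0.32, SE 0.0967). Also lower here were 7 of the 9 S phase and 3 of the 9 G2/M markers, whose part in these falls was not tested. Rrm2 stood at 278, 290 and 277 CPM and Cdc6 at 17.7, 21.4 and 17.4 CPM after both siRNAs, below every siKEAP1 library, as was the case for 31.9% of all genes. Exo1, at 17.7, 20.1 and 20.9 CPM, also lay below every siKEAP1 library and was not called (log2 fold change -0.20, adjusted p = 0.0942). With 1 library left out at a time, Exo1 ranged from -0.24 to -0.13. Over the other alternatives it ranged from -0.21 to -0.06, and none of these values was called. Slbp was higher, the opposite of its fall in control cells, at a log2 fold change of 0.17 (SE 0.061, adjusted p = 0.0316), where 24.1% of all genes were called higher. This call was lost without siKEAP1 replicate 1 (0.15, adjusted p = 0.11), siKEAP1 replicate 3 (0.17, adjusted p = 0.0756) or siKEAP1/siCCNF replicate 3 (0.13, adjusted p = 0.0885). Over the alternatives other than leaving out 1 library, the value for Slbp ranged from 0.154 to 0.295. The call for Nusap1, whose double depletion libraries stood at 59.5, 65.6 and 70.2 CPM (adjusted p = 0.015), was lost without siKEAP1 replicate 1 (-0.29, adjusted p = 0.0517), siKEAP1 replicate 2 (-0.28, adjusted p = 0.0547) or siKEAP1/siCCNF replicate 1 (-0.25, adjusted p = 0.0697), and with the gene length trend removed (-0.22, adjusted p = 0.0553).

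**Figure D4:**
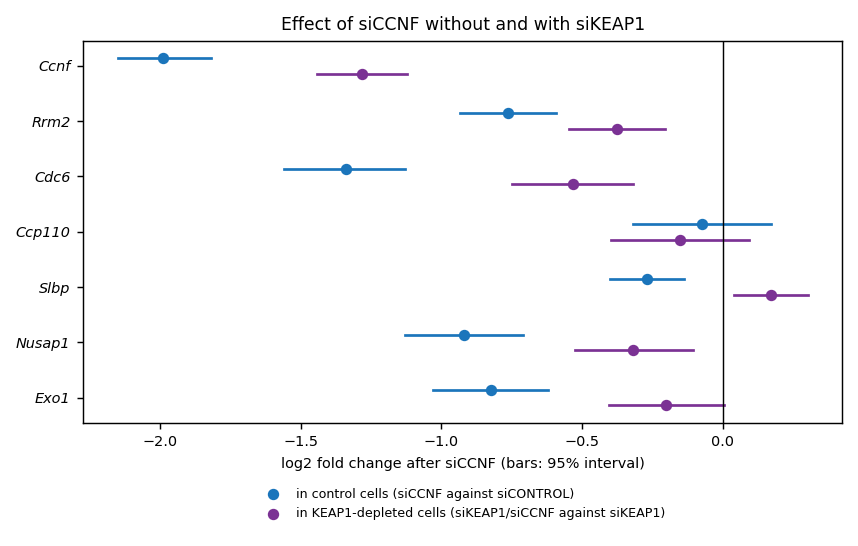
The log2 fold change after siCCNF is plotted on the horizontal axis for each gene, in control cells (blue, siCCNF against siCONTROL) and in KEAP1-depleted cells (purple, siKEAP1/siCCNF against siKEAP1), with bars for the 95% interval. For 6 of the 7 genes the purple point lies to the right of the blue one, as for Cdc6 at -0.53 against -1.34, and for Slbp it lies on the other side of 0.

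The difference between these effects of siCCNF was tested by the interaction, which is equally the difference between the effects of siKEAP1 in CCNF-depleted and in control cells. For 6 of the 7 genes it was called higher, meaning that the double depletion held more mRNA than the product of the single effects, where 10.6% of all genes were called higher. Ccnf, the target of siCCNF, is among these 6, and the others are substrates. The product of the single effects was 27.9% of siCONTROL for Cdc6 and 18.5% for Ccnf, and the fitted level in the double depletion was 49.1% and 30.2%. For Nusap1 it was 40.9% against 62.0%, for Exo1 41.3% against 63.7%, for Slbp 68.5% against 92.9% and for Rrm2 54.9% against 71.8%. The interaction was 0.81 for Cdc6 (SE 0.14), 0.71 for Ccnf (SE 0.105), 0.62 for Exo1 (SE 0.132), 0.60 for Nusap1 (SE 0.137), 0.44 for Slbp (SE 0.0861) and 0.39 for Rrm2 (SE 0.111) on the log2 scale, with adjusted p from 0.000442 (Ccnf) to 0.0255 (Rrm2). The call for Rrm2 was lost without siKEAP1 replicate 1 (0.34, adjusted p = 0.0692), siKEAP1 replicate 3 (0.39, adjusted p = 0.054) or siKEAP1/siCCNF replicate 2 (0.36, adjusted p = 0.0568). For Ccp110 the interaction was -0.08 (95% interval -0.42 to 0.27, adjusted p = 0.786).

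The interaction was also called higher for 12 of the 35 partners and for 6 of the 7 other substrates, and lower for none of them, where 10.6% of all genes were called higher. Rrm1 (0.65, SE 0.0781), Cdt1 (0.56, SE 0.121), Tpx2 (0.72, SE 0.0826) and Lsm11 (0.47, SE 0.145) were among these partners, and Gmnn (0.52, adjusted p = 0.0788), Rrm2b (0.03, adjusted p = 0.951) and Cep97 (-0.07, adjusted p = 0.831) were not called. The interaction was called higher for 5 of the 9 S phase markers and 6 of the 9 G2/M markers as well, against the same share of all genes. The targeted mRNAs were not at the same level when the siRNAs were combined. Ccnf stood at 24.5 ± 1.01 CPM against 20.5 ± 0.778 CPM after siCCNF alone, a difference that was not called, and Keap1 at 24.1 ± 2.56 CPM against 12.6 ± 0.279 CPM after siKEAP1 alone (n = 3 each). The part of the phase markers and of these levels in the interaction was not tested.

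Against siCCNF, the double depletion gave no call among the 7 genes by edgeR's quasi-likelihood test, where 5.19% of all genes were called in either direction. At an unadjusted p under 0.05 there were 5, all higher, where 10.3% of all genes were higher at that threshold, and DESeq2 called 3 higher, where it called 4.82% of all genes higher. By edgeR's test, 3 of the 9 S phase and 3 of the 9 G2/M markers were called higher and none lower. The part of these markers here was not tested. Ccnf (log2 fold change 0.26, adjusted p = 0.0746), Rrm2 (0.28, adjusted p = 0.0585), Cdc6 (0.32, adjusted p = 0.0949) and Slbp (0.16, adjusted p = 0.164) lay above every siCCNF library without overlap, as 13.4% of all genes did. With 1 library left out at a time, Cdc6 ranged from 0.20 to 0.37 and was not called. Without siCONTROL replicate 1, which is in neither group, Ccnf (0.25, adjusted p = 0.0452) and Rrm2 (0.28, adjusted p = 0.0326) were called, and calls over all genes went from 785 of 15122 to 1404 of 15548 tested.

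Among all genes tested, those whose log2 CPM followed each of the 7 most closely over the 12 libraries were picked by Pearson's r. The libraries share their groups, so the differences between groups set most of these values. Ccnf was followed most closely by Vash2 (r = 0.995), Otud6b (0.993) and Hadhb (0.993). The pattern of Cdc6 was nearest to Bub1 (0.989), a spindle checkpoint kinase, Kif15 (0.988), a mitotic kinesin, and Cenpi (0.987), a centromere protein. Rrm2 was nearest to Rtel1 (0.979), Kif18b (0.979) and Ackr3 (0.978), and Nusap1 to Chaf1b (0.985), a subunit of the chromatin assembly factor, Ifrd2 (0.984) and Kif22 (0.982). For Exo1 they were Gm48878 (0.988), Dbf4 (0.977), the activator of the CDC7 kinase, and BC030867 (0.975). Slbp and Ccp110 had looser neighbours: Rmi2 (0.923), 4931414P19Rik (0.911) and Spc25 (0.905) for Slbp, and Il20rb (0.925), Bdp1 (0.879) and Gm12138 (0.875) for Ccp110.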

How the data were processed

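C2C12 cells were grown in DMEM with serum, and poly(A) RNA of 12 libraries was sequenced and analysed for the authors by a service provider. The submitters' processing notes name HISAT2 and GRCm39, while 98.33% of 54495 gene identifiers in the table have the start and end that GENCODE gives on GRCm38, so coordinates are given on GRCm38. The counting tool is not given in the sources used here. The authors deposited 1 table that gives each library's raw read counts per gene beside its FPKM values. It also holds the authors' own log2 fold changes and p-values against siCONTROL, which were not used.

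Tests were run on the counts in edgeR 4.0.16 (R 4.3.3). The filter filterByExpr left 15122 genes, TMM factors ran from 0.971 to 1.02, and 1 quasi-likelihood fit of the 4 groups to the 12 libraries gave 6 contrasts. A Benjamini-Hochberg adjusted p under 0.05, over the 15122 genes, made a call. The replicates are labelled as biological, with no culture or day given, so p-values set group differences against the spread between these samples only. A prior count of 2 was used for log2 CPM. FPKM served for levels between genes and, as log2(FPKM + 1), for an alternative with limma 3.58.1. The further alternatives were DESeq2 1.42.0, total library sizes, no filter beyond 1 count in total, at least 10 counts in every library, a replicate block, removal of a gene length trend (splines with 5 degrees of freedom), only the compared libraries, and each library left out.

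The 7 genes, the lists and the tests were chosen with earlier results of these data known. The genes named are the 7, their direct partners, the SCF core, the E2F genes reported as substrates and, for each of the 7, the 3 genes nearest by Pearson's r. Some partners are named only as called or not called. Also named are Keap1, markers of cell types, Oip5 for its overlap, the other substrates, and Btrc, Cdc34, Dna2, Eri1 and Lsm10, chosen after their values were seen. A pair of partners is not reported here, for a reason unrelated to their values, and is in no list count, so the counts hold for the 35 partners reported. The fit was tested on simulated data. Promoter sequence is from RefSeq. Figures were drawn with matplotlib 3.10.9.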

Additional observations from a re-analysis of the deposited data

Results flagged for a closer look

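For 6 of the 7 genes the effect of siKEAP1 differed between CCNF-depleted and control cells by edgeR's quasi-likelihood test of the difference itself, adjusted over all genes. Ccnf, the target of siCCNF, is among these 6. The difference was 0.81 on the log2 scale for Cdc6 (adjusted p = 0.00119), 0.71 for Ccnf (adjusted p = 0.000442), 0.62 for Exo1 (adjusted p = 0.00467), 0.60 for Nusap1 (adjusted p = 0.00715), 0.44 for Slbp (adjusted p = 0.00285) and 0.39 for Rrm2 (adjusted p = 0.0255), where 10.6% of all genes were called in this direction. With 1 library left out at a time, the values ranged from 0.70 to 0.90 for Cdc6, from 0.67 to 0.77 for Ccnf, from 0.55 to 0.70 for Exo1, from 0.52 to 0.67 for Nusap1, from 0.40 to 0.48 for Slbp and from 0.30 to 0.44 for Rrm2. The call for Rrm2 was lost without siKEAP1 replicate 1 (0.34), siKEAP1 replicate 3 (0.39) or siKEAP1/siCCNF replicate 2 (0.36).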

How the results depend on the processing

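Of 42 log2 fold changes (7 genes in 6 comparisons), 35 kept their call under every alternative run. The 7 others were Slbp in the double depletion against siCONTROL, Slbp and Nusap1 against siKEAP1, Ccnf, Rrm2 and Cdc6 against siCCNF, and the interaction of Rrm2. Sign changes occurred in 4 comparisons, all of Ccp110 and none called. Over 833 alternative values, 12 lost a call, 10 gained one and none of the called values changed sign. Against siKEAP1, 5 genes were called, and 3 to 5 with 1 library left out, 3 of them without siKEAP1 replicate 1. Against siCCNF, where none was called, DESeq2 called 3 (Ccnf, Rrm2 and Cdc6), total library sizes 2, no filter beyond 1 count 1, and leaving out 1 library 0 to 2. The call for Slbp against siKEAP1 was also lost with no filter (0.18, adjusted p = 0.124) and with only the libraries compared (0.18, adjusted p = 0.0518). Over the 18 pairs of samples with the same replicate number, r ran from -0.27 to 0.20. Its median was 0.04, and 4 pairs were over 0.1. Every negative value came from a pair that included the double depletion. With the replicate block, 1 gene (Rrm2) was called against siCCNF and no other call among the 7 changed, and over all genes the calls after siCCNF went from 7247 to 7081. The cause of these changes was not tested.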
